A study of Rattus norvegicus with 24 samples.

Results

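The genes described here were Reg3b, Pcp4, Nmrk2, Akip1, Pdlim5 and Glul, 6 genes chosen by their array intensities at 15 weeks, which differed widely between rats on a high salt diet and control rats. They are 6 of the 4737 genes that the platform annotation names by a single symbol, and were represented by 13 of the 8799 probe sets of the array: 1 each for Reg3b, Pcp4 and Nmrk2, 2 for Pdlim5, and 4 each for Akip1 and Glul. All 13 passed the filter on dim probe sets, and all 13 also passed it when the high salt arrays of 15 weeks were left out. Because the 15-week arrays chose these genes, their own values at 15 weeks are given as a description with no test, and they were tested only on the arrays of 3 and 6 weeks. Listed genes and markers other than these 6 were tested at 15 weeks as well. For each gene with several probe sets, the leading one was that with the highest mean intensity.

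The products of these genes act in separate parts of the cell. Reg3b is a secreted lectin of the regenerating islet-derived (REG) family, known from pancreas and gut, which in mouse heart muscle is induced by the interleukin 6 family cytokine oncostatin M. Pcp4 is a small protein that binds calmodulin and speeds its exchange of calcium, and it is known from Purkinje neurons and, in mouse, from the conduction system of the heart. Nmrk2 is a nicotinamide riboside kinase of striated muscle, which makes a precursor of NAD. Akip1 binds the catalytic subunit of protein kinase A and the NF-kappa B subunit p65. Pdlim5 is a PDZ and LIM domain protein that holds protein kinase C at the Z disc, where actin filaments of neighbouring sarcomeres meet. Glul is glutamine synthetase, which joins ammonia to glutamate and is induced by glucocorticoids in skeletal muscle.

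All RNA came from the left ventricle of the Dahl salt-sensitive rat, a strain in which a high salt diet causes hypertension and enlargement of the heart. The rats arrived at 5 weeks of age. High salt rats were fed chow with 6% NaCl beginning at 6 weeks of age. Exercised rats ran on a treadmill every day for 6 weeks beginning at the same age, and the age-matched controls stayed sedentary and ate normal chow. For the exercise program the labels gave 16 m per minute, an incline of 5 degrees and 90 minutes per day, with 3 weeks at a steady load. The titles gave high salt, exercise and control at 3 and 6 weeks, and high salt and control at 15 weeks, with 3 arrays in each of these 8 groups. The labels did not say from when the weeks were counted, whether each array came from a separate animal, or what the second number meant that the 6-week arrays of replicate 1 had in their titles. The p-values therefore reflect the spread among these arrays and nothing wider.

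Some arrays limit what follows. Replicates 2 and 3 of exercise at 3 weeks were identical in all 8799 values to replicates 2 and 3 of control at 3 weeks, and no other 2 columns had more than 31 values in common. These 2 arrays, deposited under both labels, were left out of the groups, so that exercise and control at 3 weeks had 1 array each and 20 arrays were used. The ratio of the 3' to the 5' GAPDH control probe set, which grows as RNA breaks down, was 1.584, 2.481 and 3.988 in the controls of 6 weeks, 1.087, 1.525 and 1.58 in those of 15 weeks, and between 0.989 and 1.182 in the other arrays used. Between high salt and control at 6 weeks, 942 probe sets were called in the fit without this ratio and 15 in a fit that held it as a covariate. The ratio did not overlap between these groups, so the fit cannot tell group from ratio and calls may be lost by that alone. The ventricular myocyte markers Myh6, Myl2, Myl3, Tnnt2, Tnni3 and Actc1 were bright in every group, which fits the labelled tissue. On the same list Myh7 and Pln were bright too, Ryr2 read between 143 and 1422.5, and Ttn was dim, between 12.4 and 95.3.

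The promoters of these genes are shown where the letters give a frame for genes whose intensities moved together or at different weeks. RefSeq held a promoter window for each of the 6 genes, with 2 for Glul, running from 250 bases before to 50 bases after the start of the gene on build GRCr8. They were searched on both strands for a STAT motif (TTCNNNGAA), a TATA box (TATAAA), an E-box (CACGTG), an AP-1 motif (TGANTCA) and a CCAAT box (CCAAT). In the 3 windows printed here, 5' to 3' on the strand of the gene, capitals mark the matches.
Reg3b, chr4:112419526-112419825, plus strand: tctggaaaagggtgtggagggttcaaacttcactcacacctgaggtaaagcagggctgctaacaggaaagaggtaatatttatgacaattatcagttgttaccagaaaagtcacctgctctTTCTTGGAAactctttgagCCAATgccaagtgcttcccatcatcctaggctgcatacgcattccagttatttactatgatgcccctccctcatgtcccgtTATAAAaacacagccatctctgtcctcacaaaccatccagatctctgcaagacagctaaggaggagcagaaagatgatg
Nmrk2, chr7:9165317-9165616, plus strand: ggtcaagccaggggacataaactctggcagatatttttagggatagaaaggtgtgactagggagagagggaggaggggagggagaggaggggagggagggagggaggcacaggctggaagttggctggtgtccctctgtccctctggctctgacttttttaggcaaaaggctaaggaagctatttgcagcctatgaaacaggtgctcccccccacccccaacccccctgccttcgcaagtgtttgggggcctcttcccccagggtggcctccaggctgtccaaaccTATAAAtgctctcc
Glul, the second window, chr13:68575816-68576115, plus strand: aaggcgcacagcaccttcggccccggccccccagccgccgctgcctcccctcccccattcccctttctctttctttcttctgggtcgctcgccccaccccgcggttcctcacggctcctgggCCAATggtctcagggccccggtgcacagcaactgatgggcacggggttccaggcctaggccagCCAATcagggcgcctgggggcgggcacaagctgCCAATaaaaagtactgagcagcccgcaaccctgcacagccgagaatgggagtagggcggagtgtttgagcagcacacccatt
The Reg3b window held a STAT motif whose first base lay 129 bases before the start, a CCAAT box at 110 bases and a TATA box at 29 bases before it. STAT proteins carry the signal of interleukin 6 family cytokines to DNA. Of the 33469 RefSeq promoters searched, 8.87% held the STAT motif, 14.2% the TATA box and 37.5% the CCAAT box. The second Glul window held CCAAT boxes at 128, 65 and 32 bases before the start. The Nmrk2 window held a single match, a TATA box beginning 37 bases after the start. Among the windows not printed, that of Akip1 held an E-box at 129 bases before the start (6.42% of all promoters), those of Pcp4 and the first Glul entry each held a CCAAT box on the minus strand, and that of Pdlim5 held none of the motifs. The AP-1 motif (7.33% of all promoters) was in none of the windows. A match is a description of the letters, and the arrays measured no binding.

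Reg3b was brighter in every high salt array of 3 weeks than in the other arrays of that week, the one leading probe set for which those groups did not overlap. Its probe set M98049_s_at, whose suffix marks probes that may match more than 1 transcript, read 451.5, 417.6 and 179.7 in the high salt arrays of 3 weeks, against 37.2 in the exercise array and 31.4 in the control array. The 2 arrays deposited under both labels read 8.8 and 44.8. Such separation at 3 weeks was common on the array: 14.8% of the probe sets tested did not overlap between the 3 high salt arrays and the 4 others. At 6 weeks the intensities were 6279.1, 474.5 and 36.8 in high salt, 87.2, 31.5 and 34.2 in exercise, and 59.3, 78.4 and 12.6 in control. The high salt replicates of 6 weeks were spread widely, and replicate 3 lay among the controls. At 15 weeks Reg3b read 3861.5, 921.9 and 5264.5 in high salt and 51.8, 13.9 and 12.9 in control, so the groups did not overlap.

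The test of Reg3b at 6 weeks passed its threshold narrowly. High salt exceeded control by 2.89 ± 0.96 on the scale of log2(intensity + 40) (SE, n = 3 each, limma adjusted p = 0.04884). Over all 6555 probe sets tested, 14.4% were called in this comparison, 6.64% higher and 7.73% lower in high salt, and 2 of the 13 member probe sets were called, Reg3b and Pdlim5 U48247_g_at. A fit of only the compared groups gave 2.89 ± 1.21 (limma adjusted p = 0.1689). Leaving out each of the 6 arrays compared ended the call in 5 cases and kept it without high salt replicate 3, with differences between 1.22 and 4.40 and limma adjusted p between 0.0041 and 0.2431. The lowest difference, 1.22 ± 0.68, was that without high salt replicate 1, and in the fit with the GAPDH covariate the difference was 2.10 ± 1.63 (limma adjusted p = 0.7585). Exercise differed from control by 0.04 ± 0.96, and high salt from exercise by 2.84 ± 0.96 (limma adjusted p = 0.522). At 3 weeks the difference from the single control array was 2.36 ± 1.35 (limma adjusted p = 0.9994). Against all 4 arrays of 3 weeks without high salt, a comparison added after the data were seen, it was 2.41 ± 0.84 (limma adjusted p = 0.3741). In an alternative fit of only the compared arrays the same difference was 2.41 ± 0.29 (limma adjusted p = 0.004968). That fit called 100 of the 6555 probe sets, where the main fit called 10. Of the 13 members it called 1 higher, Reg3b, and 1 lower. Why the fits differed was not tested. At 15 weeks the difference was 5.40 ± 0.96, given as a description.

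**Figure D1:**
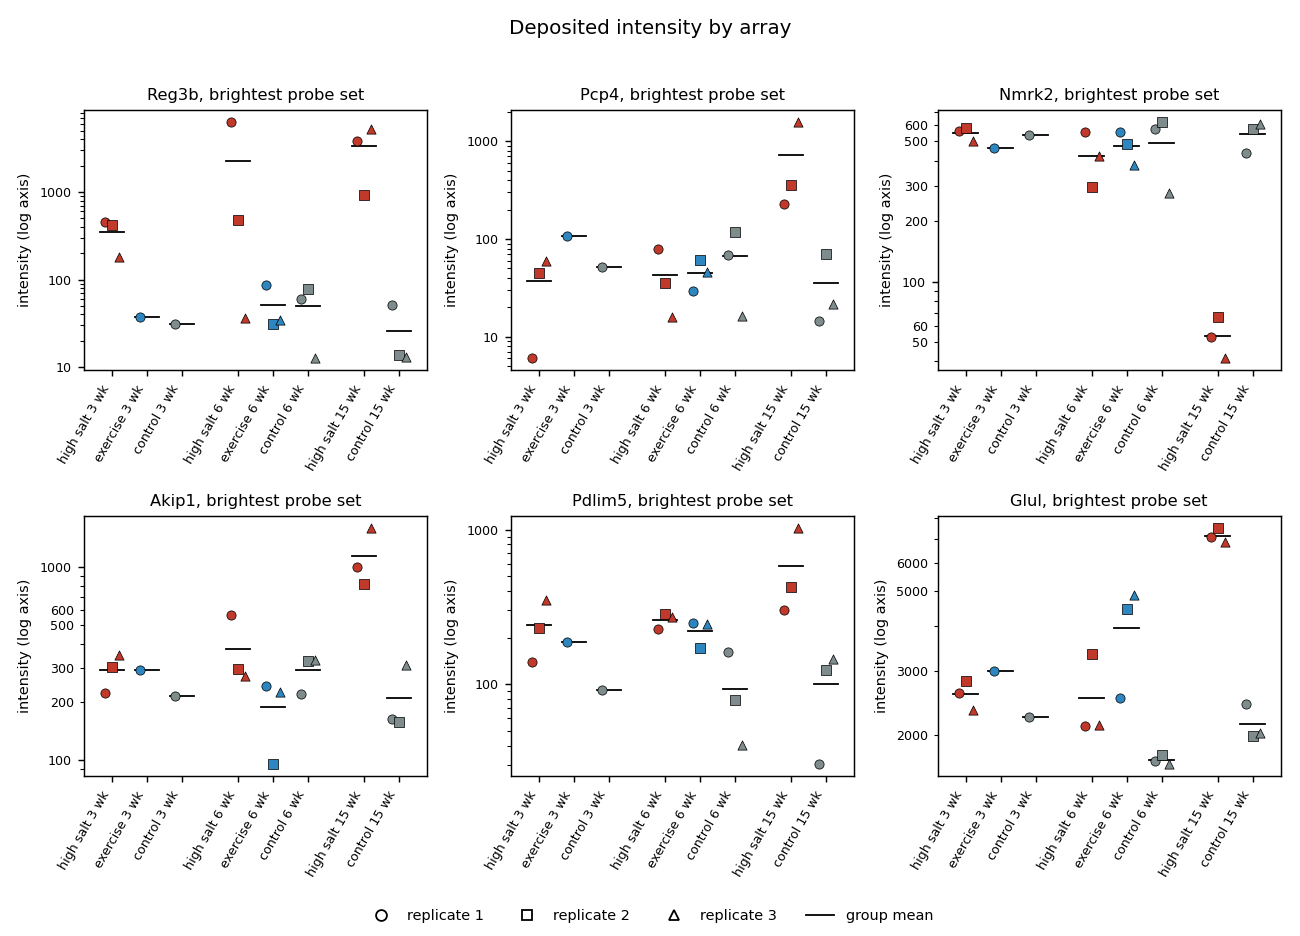
Intensity of the leading probe set of each gene on every array used, on a log axis, for high salt (red), exercise (blue) and control (grey) at 3, 6 and 15 weeks; symbols give the replicate number and bars the group mean. Reg3b in high salt lay between 179.7 and 451.5 at 3 weeks and between 36.8 and 6279.1 at 6 weeks, while the Nmrk2 arrays of high salt at 15 weeks lay between 41.4 and 66.3.

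The spread of Reg3b over the high salt arrays of 6 weeks can be set beside 2 other genes of the loaded ventricle. Nppa, the atrial natriuretic peptide precursor, has 4 probe sets, and in replicates 1, 2 and 3 E00698cds_s_at read 9981, 9800.1 and 10215.5, E00775cds_s_at 12045.7, 8475 and 7358.2, E00903cds_s_at 9845.1, 8390.7 and 8181.1, and X01118_at 10276.2, 8564 and 7107. Replicate 1 was the highest on 3 of the 4, but every Nppa value lay above every control of 6 weeks, as Reg3b did not. Spp1, osteopontin, read 500.8, 86 and 121 in high salt and between 72.8 and 111.4 in control at 6 weeks, so replicate 1 was again the highest, while replicate 2 lay among the controls. Spp1 was also the gene most like Reg3b by Pearson r over these same arrays (0.87), so its order of replicates is not a separate observation. Pancreatic exocrine markers, from a tissue known for Reg3b, summed over the 12 of 13 on the array to 653.4 to 906.4 in high salt and 1017.9 to 1136.8 in control at 6 weeks, and to 603 to 1405.4 in high salt and 847.9 to 989.7 in control at 15 weeks. No pancreatic marker was called at either week.

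Pdlim5 was the other member called at 6 weeks. The leading probe set, U48247_g_at, read 227, 282.8 and 271.8 in high salt, 247.8, 171.8 and 243.7 in exercise, and 161.1, 78.3 and 40.6 in control. Both loads lay above all 3 controls. High salt exceeded control by 1.27 ± 0.41 (SE, n = 3 each, limma adjusted p = 0.04514), a call kept when control replicate 1 was left out and lost when any other of the 6 arrays was, with differences between 0.96 and 1.62 and limma adjusted p between 0.01391 and 0.2107. Exercise exceeded control by 1.06 ± 0.41, which was not called (limma adjusted p = 0.1173). In the fit with the GAPDH covariate the high salt difference was 0.78 ± 0.70 (limma adjusted p = 0.803), and the order of the 3 control intensities was the reverse of the order of their GAPDH ratios. At 3 weeks high salt read 138.2, 231.5 and 348.3, the exercise array 187.5, the control array 91.2 and the arrays of both labels 247.9 and 213.1, so high salt overlapped the other arrays. At 15 weeks the values were 302.7, 427.4 and 1019.6 in high salt and 30.2, 122.4 and 146.1 in control, with no overlap and a difference of 2.11 ± 0.41.

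The second Pdlim5 probe set gave a smaller contrast. U48247_at read 164.8, 208.1 and 64.4 in high salt, 179.1, 93.4 and 123.8 in exercise and 133.5, 130.5 and 102 in control at 6 weeks, and all 3 groups overlapped. At 15 weeks it read 210.4, 213 and 345.6 in high salt and 28.7, 84 and 115.9 in control, a difference of 1.40 ± 0.33 with no overlap. The separation at 6 weeks was thus seen in 1 of the 2 Pdlim5 probe sets and that at 15 weeks in both.

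Glul was brighter at 15 weeks in high salt on all 4 of its probe sets, and 2 of the 4 were called higher with exercise at 6 weeks. The leading probe set, rc_AI232783_s_at, read 7068.8, 7476.3 and 6855.4 in high salt and 2438.2, 1982.1 and 2024.7 in control at 15 weeks. Replicates agreed closely, and the difference was 1.72 ± 0.22. At 6 weeks this probe set read 2114.7, 3344.5 and 2129.6 in high salt, 2525.8, 4458.6 and 4885.8 in exercise, and 1691.7, 1760.1 and 1656.2 in control. All exercise and all high salt arrays lay above all controls, and exercise overlapped high salt.

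In the comparison of exercise with control at 6 weeks, 7.83% of all probe sets were called, 4.47% higher and 3.36% lower with exercise, and 2 of the 13 member probe sets were called, both for Glul. The difference was 1.14 ± 0.22 for rc_AI232783_s_at (SE, n = 3 each, limma adjusted p = 0.003446) and 1.43 ± 0.31 for rc_AA852004_s_at (limma adjusted p = 0.007792). In the fit with the GAPDH covariate these were 1.03 ± 0.38 (limma adjusted p = 0.5788) and 1.15 ± 0.55 (limma adjusted p = 0.6846). Without exercise replicate 3 the second was 1.21 ± 0.34 (limma adjusted p = 0.05233). High salt exceeded control by 0.53 ± 0.22 on the leading probe set, which was not called (limma adjusted p = 0.1085). High salt lay below exercise on all 4 Glul probe sets, by differences of -0.80 to -0.62, and none of these was called.

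The 4 Glul probe sets fell into pairs. Over the 14 arrays that were not from 15 weeks, log2 values of rc_AI232783_s_at and rc_AA852004_s_at correlated at r = 0.97, those of M91652complete_seq_at and M91652complete_seq_g_at at r = 0.89, and the 4 pairs across these groups at r of 0.27 to 0.55. These correlations are descriptions over arrays that share the groups. The M91652 probe sets did not separate exercise from control at 6 weeks: M91652complete_seq_g_at read 2372.2, 3419.5 and 3793 in exercise and 1190.9, 3777.7 and 3144.4 in control, and M91652complete_seq_at read 1611.1, 1815.7 and 2040.6 in exercise and 831.7, 1922.2 and 1046.9 in control. Their differences were 0.37 ± 0.31 and 0.59 ± 0.27, and neither was called.

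The M91652 pair and rc_AA852004_s_at were low in the high salt arrays of 3 weeks. M91652complete_seq_at read 694.5, 984.5 and 731 in high salt, 1260 in the exercise array, 1285.3 in the control array and 1804.4 and 1487.4 in the arrays of both labels. M91652complete_seq_g_at read 1285.3, 1683.5 and 994.7 in high salt, 2080 in exercise, 2424.9 in control and 3990.1 and 2240.1 in the arrays of both labels. rc_AA852004_s_at read 348.2, 333.2 and 260.3 in high salt, 409.9 in exercise, 361.8 in control and 661.2 and 476.9 in the arrays of both labels. Every high salt array was below every array of that week without high salt on all 3 probe sets, where 14.8% of all probe sets did not overlap. Against those 4 arrays the differences of the M91652 pair were -0.83 ± 0.24 and -0.98 ± 0.29, which were not called (limma adjusted p = 0.2299 and 0.2617). rc_AA852004_s_at differed by -0.52, not called either, and the leading probe set differed by -0.21. At 15 weeks the M91652 probe sets were on the other side, at 1.71 ± 0.27 and 1.29 ± 0.31.

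**Figure D2:**
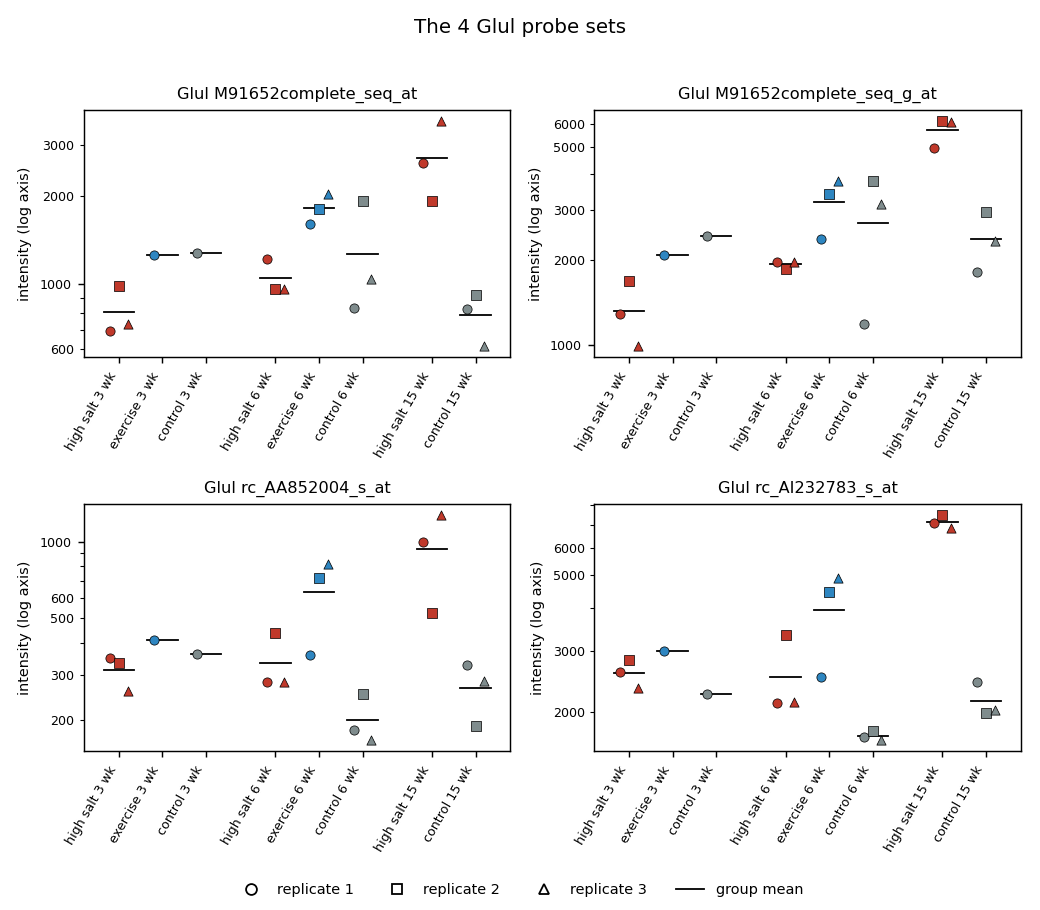
Intensity of each Glul probe set on every array used, on a log axis, with symbols for replicates and bars for group means. The lower panels place exercise at 6 weeks above control at 6 weeks without overlap, and in the upper panels those groups overlap; high salt at 15 weeks lies above control at 15 weeks in all 4 panels.

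Nmrk2 was the one member that was lower in high salt at 15 weeks, and its intensities before that week overlapped. Probe set rc_AI639060_at read 53.2, 66.3 and 41.4 in high salt and 436.5, 576.1 and 610.1 in control at 15 weeks, with no overlap and a difference of -2.63 ± 0.26. At 3 weeks it read 561.4, 580 and 501.5 in high salt, 462.5 in the exercise array, 537.6 in the control array and 395 and 520.5 in the arrays of both labels. At 6 weeks it read 555, 295.3 and 421.9 in high salt, 558.2, 484.9 and 382.8 in exercise, and 578.2, 621.9 and 274.7 in control. High salt differed from control by -0.16 ± 0.26 at 6 weeks, which was not called. The 15-week high salt arrays were the lowest 3 of the 20 arrays used, and the other 17 ran between 274.7 and 621.9. In mouse, Nmrk2 transcript is known to be induced in models of heart failure.

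Pcp4 was dim in all arrays outside high salt at 15 weeks. Probe set M24852_at read 227, 358.2 and 1569.7 in high salt and 14.6, 70.2 and 21.4 in control at 15 weeks, a difference of 2.95 ± 0.52. It read 6, 45.4 and 59.4 in high salt, 107.4 in exercise and 52.1 in control at 3 weeks. It read 78.6, 35.3 and 15.9 in high salt, 29.4, 61.1 and 45.5 in exercise, and 68.4, 117.8 and 16.3 in control at 6 weeks. The groups of 6 weeks overlapped, and high salt differed from control there by -0.32 ± 0.52, which was not called. Many of these values lay near the added constant of 40, so folds between them are understated. At 15 weeks high salt replicate 3 stood above the other 2, and the difference without it was 2.18. Summed markers of neurons and glia, known sites of Pcp4 and Glul, came to 874.4 to 1174.9 in high salt and 1517.4 to 1722.5 in control over the 8 of 12 on the array at 15 weeks. Most of that sum was Pmp22, a myelin protein gene, which was called lower (-0.84), while the other 4 tested were not called. Of these, Snap25 (-0.60) had a difference below 0, and Nefl (0.57), S100b (0.19) and Calb1 (0.13) had differences above 0. The part of such cells in the result was not tested.

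Akip1 gave different answers on its 4 probe sets. The leading one, rc_AA799992_g_at, read 995.9, 818.4 and 1584 in high salt and 163.7, 158.3 and 309.6 in control at 15 weeks, with no overlap and a difference of 2.23 ± 0.33. At 3 weeks it read 223.2, 304.3 and 352.1 in high salt, 292.3 in the exercise array, 215.2 in the control array and 207.5 and 213.2 in the arrays of both labels. At 6 weeks it read 564.2, 296.8 and 272.6 in high salt, 241.8, 95.2 and 225.3 in exercise, and 220.3, 324.4 and 329.7 in control. High salt overlapped control at 6 weeks and lay above all exercise arrays. The difference from control was 0.29 ± 0.33 and that from exercise 0.88 ± 0.33, and neither was called (the second at limma adjusted p = 0.5571).

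High salt replicate 1 was the highest array of 6 weeks for this Akip1 probe set as it was for Reg3b. The other probe set of the same sequence, rc_AA799992_at, read 158.5, 178.8 and 183 in high salt and 80.9, 72.2 and 109.5 in control at 15 weeks, a difference of 0.75 ± 0.24 with no overlap. rc_AA799801_at and rc_AA799801_g_at, with mean intensities of 56.7 and 106.9, differed by 0.63 and 0.44 at 15 weeks. The size of the Akip1 difference at 15 weeks therefore depended on the probe set, from 0.44 to 2.23.

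**Figure D3:**
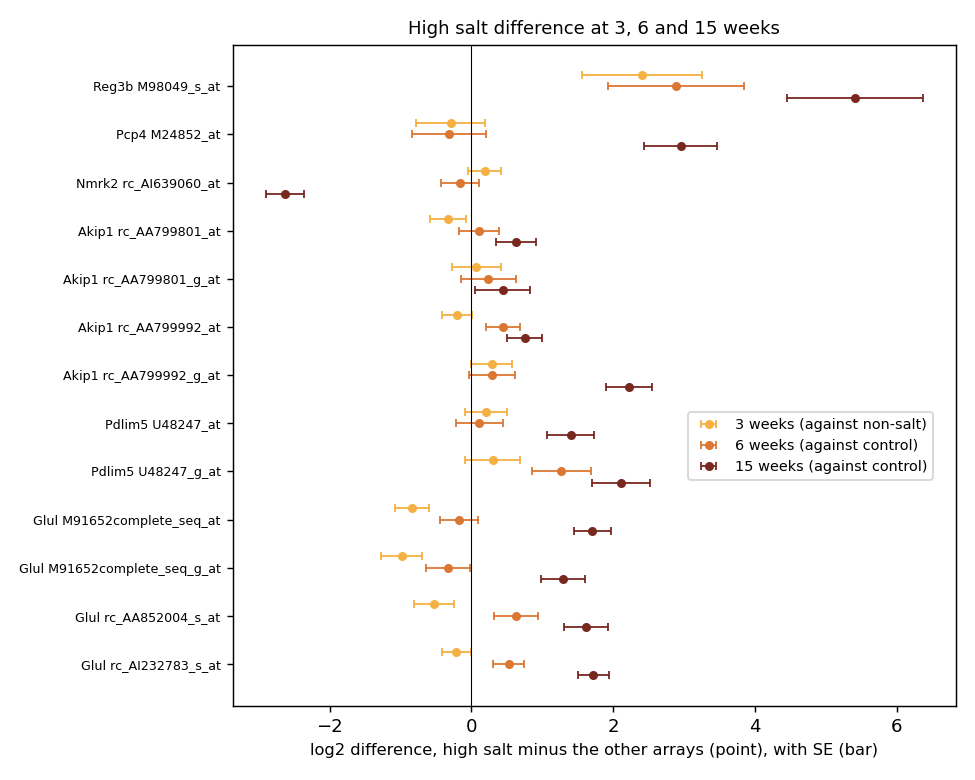
Difference of high salt from the other arrays on the scale of log2(intensity + 40), with its SE, for all 13 member probe sets. At 3 weeks high salt was set against the 4 arrays without high salt, and at 6 and 15 weeks against control. The 15-week values chose the genes. Reg3b was at 2.89 at 6 weeks and 5.40 at 15 weeks, and Nmrk2 reached -2.63 at 15 weeks after -0.16 at 6 weeks.

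The other 4 comparisons of the arrays of 3 and 6 weeks called no member. In high salt against exercise at 6 weeks, 0.0153% of all probe sets were called and 0 of the 13 members, and 6 members had an unadjusted p under 0.05, as did 7.05% of all probe sets. In high salt at 6 weeks against high salt at 3 weeks, 0.0763% were called and 0 members, with 1 member and 4.62% of all at an unadjusted p under 0.05. Reg3b differed by 0.78 ± 0.96 there. In high salt against the single control array of 3 weeks 0.0% were called and 0 members, with 0 members and 3.72% of all at an unadjusted p under 0.05. Against the 4 arrays of 3 weeks without high salt 0.153% were called and 0 members, with 3 members and 8.05% of all at an unadjusted p under 0.05.

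**Figure D4:**
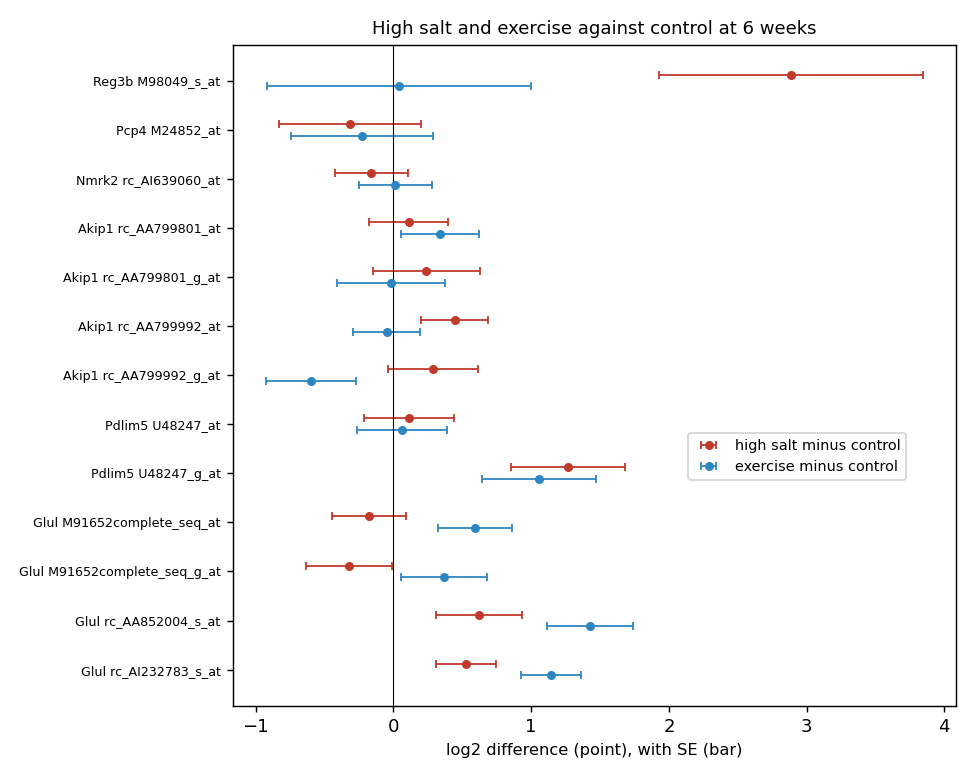
Difference from control at 6 weeks on the scale of log2(intensity + 40), with its SE (n = 3 each), for high salt and exercise on all 13 member probe sets. Reg3b and Pdlim5 U48247_g_at were called for high salt, and Glul rc_AI232783_s_at and rc_AA852004_s_at for exercise.

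The order of the 3 weeks differed between members. Among the leading probe sets at 3 weeks, high salt lay wholly to one side of the 4 arrays without high salt for Reg3b and overlapped them for the other genes. Over all 13 probe sets, 4 did not overlap at 3 weeks, beside 14.8% of all probe sets tested. They were Reg3b, higher in high salt, and the Glul probe sets other than the leading one, lower in high salt. At 6 weeks high salt and control did not overlap for Pdlim5 and Glul, 2 of the 6 leading probe sets and 3 of all 13, beside 30.7% of all probe sets tested, and they overlapped for Reg3b, Pcp4, Nmrk2 and Akip1. Exercise and control did not overlap on the same 3 probe sets, beside 28.5% of all. Over all 13 member probe sets these shares were no higher than for the array as a whole, and 2 of 6 was near them. At 15 weeks, where the choice of genes set it, 12 of the 13 did not overlap, beside 20.9% of all. For the leading Glul probe set, high salt at 15 weeks was followed in order of mean intensity by exercise at 6 weeks, and these groups did not overlap, while exercise at 6 weeks overlapped high salt at 6 weeks and at 3 weeks. In a left ventricle, fewer cells of a type and less RNA per cell cannot be told apart.

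The genes whose pattern was most like that of a member, by Pearson r of log2 values over the 20 arrays, are given as a description. The points share the 8 groups, and the order rests largely on the high salt arrays of 15 weeks that chose the members, so r over the other 17 arrays, added after the data were seen, follows each. For Reg3b they were Spp1 at 0.87 (0.75 over the 17), Tsc22d1 at 0.86 (0.78) and Sorbs2 at 0.84 (0.69). For Akip1 they were Spp1 at 0.92 (0.70), Crem at 0.85 (0.59) and Ncam1 at 0.84 (0.30). By Spearman's rho Spp1 ranked 4 for Akip1 and 144 for Reg3b. Reg3b and the leading Akip1 probe set correlated with each other at 0.81, or 0.60 without the arrays of 15 weeks. For Nmrk2 they were the collagen gene Col3a1 at 0.91 (0.53), Crybb1 at 0.90 (0.48) and Vtn at 0.90 (-0.13). For Pcp4 they were Cdo1 at 0.85 (0.36), Eif4ebp1 at 0.84 (0.04) and Nupr1 at 0.84 (0.37). Pdlim5 was most like Insig1 at 0.84 (0.69), Klhl41 at 0.83 (0.74) and Hmox1 at 0.82 (0.67), and Glul most like Slc4a1 at 0.87 (0.56), Csdc2 at 0.86 (0.69) and Kcnj5 at 0.85 (0.74). By Spearman's rho Vtn ranked 490 for Nmrk2 and Eif4ebp1 ranked 665 for Pcp4.

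The pathways around the members were counted on lists, each gene at its brightest tested probe set. At 6 weeks 28 listed genes were called in high salt against control, of which 0 were also called with the GAPDH covariate and 24 kept their sign. Each call below at 6 weeks rests on controls whose ratio was high. Because the ratio did not overlap between these groups, calls may be lost with the covariate whether or not RNA quality caused them. The genes whose sign turned were Jak1 (-0.20 with the covariate), Nos3 (0.09), Lims1 (-0.28) and Des (-0.78). At 15 weeks, where 7.2% of all probe sets were called, 3.28% higher and 3.92% lower, 15 listed genes were called, and 11 of them also with the covariate. Values in brackets are differences of high salt from control on the log2 scale (n = 3 each). Their SEs ran between 0.16 and 0.53 and their limma adjusted p between 0.000253 and 0.0464 for the genes called at 6 weeks, and between 0.22 and 0.53 and between 0.000324 and 0.0475 for those called at 15 weeks. Around Reg3b, in the REG family and interleukin 6 and oncostatin M signalling, 21 genes were tested, and 4 rose and 0 fell at 6 weeks. They were the shared receptor subunit Il6st (1.02), the kinase Jak1 (0.86, of the other sign with the covariate), the feedback inhibitor Cish (1.04) and the transcription factor Junb (0.70). The median of the list was 0.078, beside -0.15 over all probe sets. At 15 weeks 1 gene rose, the transcription factor Cebpb (1.64). The listed genes named at 15 weeks here and below are all those called, chosen after their values were seen.

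Around Pcp4, among calmodulin and its targets, 1 of 20 genes rose at 6 weeks, the calcineurin subunit Ppp3r1 (0.71), and 4 fell. Those that fell were the kinase inhibitor Camk2n1 (-1.81), the nitric oxide synthase Nos3 (-1.29, of the other sign with the covariate) and the kinases Camk1 (-0.72) and Camkk2 (-0.72). At 15 weeks Ppp3r1 rose (0.79) and none fell. The list medians were -0.312 at 6 weeks and -0.2 at 15 weeks, where that of all probe sets was -0.043. Around Nmrk2, of 10 genes of NAD synthesis and use 1 fell at 6 weeks, the nucleoside transporter Slc29a1 (-0.82), and 0 were called at 15 weeks, with medians of -0.106 and 0.02. The 10 tested were mainly NAD users, transporters and genes of the kynurenine pathway, while Nampt, Nmrk1, Naprt, Qprt and the Nmnat genes, which make NAD or its precursors, had no annotated probe set here.

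Around Akip1, of 25 genes of protein kinase A, its anchoring and cyclic AMP, 2 rose at 6 weeks, the regulatory subunit Prkar1a (1.32) and the anchoring protein Akap1 (1.23), and 3 fell, Akap8 (-0.95), the phosphodiesterase Pde4a (-0.97) and the cyclase Adcy4 (-1.10). At 15 weeks 4 rose, the cyclic AMP response modulator Crem (1.76), the phosphodiesterase Pde4d (1.09), Prkar1a (0.97) and the NF-kappa B inhibitor Nfkbia (0.96), and Adcy4 fell (-1.27). The list medians were -0.249 at 6 weeks and -0.008 at 15 weeks. Around Pdlim5, of 20 Z disc and LIM domain genes 4 rose at 6 weeks, Ankrd1 (0.75), Pdlim1 (0.72), and desmin, Des (1.12), and Lims1 (0.82), the last 2 of the other sign with the covariate, and 3 fell, Actn4 (-1.26), Pdlim3 (-1.02) and Csrp1 (-0.70). At 15 weeks only Csrp2 was called on this list, and it rose (1.69). The medians were 0.001 and -0.058.

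Around Glul, of 14 genes of glutamine, glutamate and ammonia handling 2 rose at 6 weeks, the ornithine aminotransferase Oat (1.49) and the glutamate dehydrogenase Glud1 (0.91), and 2 fell, the glutamate transporter Slc1a2 (-0.96) and the alanine aminotransferase Gpt (-0.74). At 15 weeks 3 rose, the amino acid transporter subunit Slc3a2 (1.66), the glutathione synthesis subunit Gclm (1.07) and Oat (0.996), and 0 fell, with medians of 0.009 at 6 weeks and 0.405 at 15 weeks. Of 11 genes known to respond to glucocorticoids, 1 rose at 6 weeks, the pyruvate dehydrogenase kinase Pdk4 (3.78), and 1 fell, Klf9 (-1.47). At 15 weeks 4 rose, Pdk4 (3.55), the glucocorticoid-activating enzyme Hsd11b1 (1.39), the cell cycle inhibitor Cdkn1a (1.36) and Nfkbia (0.96), and the glucocorticoid receptor Nr3c1 fell (-0.81). The medians were 0.104 at 6 weeks and 0.495 at 15 weeks.

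Markers of other cells moved at 15 weeks beside the members. Over the 9 fibroblast markers 4 fell and 0 rose, and their summed intensity was 13656.6 to 25796 in high salt and 28682.1 to 39356.3 in control. Over red blood cell markers 2 of 4 rose, with sums of 32793.6 to 39582.3 in high salt and 18747.7 to 25024.7 in control. Endothelial sums were 1052.4 to 1226 in high salt and 1694.7 to 2203.7 in control, with 0 of 4 called. The high salt and control sums did not overlap in these 3 lists. Nor did they for atrial myocytes (21484.6 to 25871.6 against 3651.8 to 6017.9) or for neurons and glia (874.4 to 1174.9 against 1517.4 to 1722.5). The part of any of these cells in the members' differences at 15 weeks was not tested. Beyond the fibroblast, red blood cell and endothelial lists, macrophages and leukocytes had 1 of 8 called higher and 1 lower. Skeletal muscle, a known site of Nmrk2, had 1 of 8 higher, atrial myocytes 1 of 4 higher (Nppa), and neurons and glia 1 of 5 lower. No marker of ventricular myocytes (9 tested), liver (6), smooth muscle (5), adipocytes (5) or pancreas (8) was called at that week. No listed marker was at 0 in any array.

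At 6 weeks the same lists gave other counts. Macrophage and leukocyte sums were 6031.2 to 9475.5 in high salt, 5517.2 to 7258.6 in exercise and 4336.7 to 4940.1 in control. Of 8 markers on that list, 1 was called higher, Cd74 (0.85), and 1 lower, Ptprc (-0.85). High salt and control sums also did not overlap for endothelium (1031.7 to 1537.6 against 1626.4 to 2676.5) and skeletal muscle (33959.6 to 42120.4 against 17501 to 33347.1). The same held for atrial myocytes and pancreas. The part of any of these cells in the Reg3b and Pdlim5 calls of that week was not tested. Endothelial markers fell in 2 of 4, Nos3 among them, and smooth muscle markers rose in 1, Des, and fell in 3 of 5, and no fibroblast, pancreas or liver marker was called. Skeletal muscle had 1 called higher and 1 lower, ventricular myocytes, atrial myocytes and neurons and glia 1 higher each, and red blood cells and adipocytes 1 lower each.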

How the data were processed

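The values were linear intensities, 1 per probe set and array, as deposited by the authors for 24 columns of left ventricle RNA on an Affymetrix rat array. How the authors summarised probes, and with what software, is not given in the sources used here. Trimmed by 2%, column means ran between 500.767 and 501.021, so the deposited intensities had a common scale and were not normalized again. Detection calls were not used here. Precision is limited by the number of arrays.

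Probe sets were named from the array's platform annotation: 7018 had 1 gene symbol, 308 had several and 1473 had none. The 59 control probe sets were left out, as were probe sets whose mean was under the 25th percentile of 41.9, which left 6555. Values were analysed as log2(intensity + 40), the constant being near the 25th percentile of all values (36.3). The fit used limma 3.58.1 in R 4.3.3 with 1 mean for each of the 8 groups, 12 residual degrees of freedom and a mean-dependent prior. P-values were adjusted over all 6555 by the Benjamini-Hochberg method, and the threshold for a call was 0.05. Two-sided tests were used, and the calculation was tested on simulated data.

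The members and the gene and marker lists were chosen with earlier results of these data known. Named were all member probe sets, the 3 genes most like each member, and of each pathway list up to 4 genes with the smallest p and all those called at 6 weeks. The alternatives were other constants, no filter, quantile normalization, array weights, the GAPDH ratio as a covariate, a fit of only the compared groups, a replicate block, the arrays of both labels kept as control, as exercise or as both, and each array left out. RefSeq promoters were matched by symbol, and all 6 genes matched.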

Additional observations from a re-analysis of the deposited data

Results flagged for a closer look

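Some probe sets had all high salt arrays on one side of the control mean in one week and all on the other side in another. None of these differences between weeks was tested, and the control at 3 weeks is 1 array. For Glul, M91652complete_seq_at was at -0.67 (log2, high salt minus control) at 3 weeks and 1.71 at 15 weeks. M91652complete_seq_g_at was at -0.89 at 3 weeks, -0.32 at 6 weeks and 1.29 at 15 weeks, and rc_AA852004_s_at was at -0.19 at 3 weeks, 0.62 at 6 weeks and 1.61 at 15 weeks. For Akip1, rc_AA799992_at was at -0.20 at 3 weeks, 0.45 at 6 weeks and 0.75 at 15 weeks, and rc_AA799801_at was at -0.25 at 3 weeks and 0.63 at 15 weeks. The 15-week values chose these genes.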

How the results depend on the processing

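In high salt against control at 6 weeks, where 2 member probe sets were called, the count was 0 with a constant of 100, 0 with no filter, 0 with the GAPDH covariate, 4 with array weights and 1 in a fit of only the compared groups. With array weights, 2 of the 4 were higher and 2 lower. Leaving out each array in turn gave 0 to 2. The 2 came without control replicate 1, where Reg3b was not called. They were Pdlim5 U48247_g_at, higher, and Glul M91652complete_seq_g_at, lower (-0.83, limma adjusted p = 0.02147). In exercise against control at 6 weeks, where 2 were called, the count was 0 with the GAPDH covariate and 1 to 3 when each array was left out. With array weights it was 4, of which 3 were higher and 1 lower. In high salt against the 4 arrays of 3 weeks without high salt, 0 were called. The count was 3 with array weights, 1 higher and 2 lower. In a fit of only the compared groups it was 2, 1 higher and 1 lower. The cause was not tested. The calls over all probe sets moved too: at 6 weeks the high salt count of 942 was 15 with the GAPDH covariate, 1792 with array weights, 404 with only the compared groups and 454 to 1232 when an array was left out. The exercise count of 513 was 0 with the covariate, 1731 with weights, 258 with only the compared groups and 210 to 860 when an array was left out. Replicate numbers did not pair the arrays: of 45 pairs with the same number, the correlation of deviations from the group means was over 0.1 in 8, with a median of -0.0279. With the replicate block, 2 members were called in high salt and 2 in exercise against control at 6 weeks, and 889 and 454 probe sets in all. Of 1261 values of single probe sets under alternatives, 20 lost a call, 12 gained one and 0 called values changed sign. Most could lose none: only the 2 member probe sets called in high salt and the 2 in exercise at 6 weeks had a call to lose. Values of the other sign numbered 62, none of them called.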

Other observations

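Reg3g, another lectin of the REG family, overlapped between the groups where Reg3b did not. It read 1350.9, 462.1 and 460.5 in high salt and 393, 314.1 and 723.4 in control at 15 weeks. At 6 weeks it read 723.6, 355.5 and 200.3 in high salt and 163.5, 108.1 and 577.4 in control, and its highest array was high salt replicate 1, which was also the highest for Reg3b. The brighter Reg1a probe set, E01983cds_s_at, read 70.8, 67.4 and 65.9 in high salt and 54.4, 55.4 and 35.6 in control at 15 weeks. These groups did not overlap, beside 20.9% of all probe sets tested, and the probe set stayed dim in every group.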
